A study of Psophocarpus tetragonolobus with 12 samples.

Results

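Pods of winged bean, a legume whose seeds store abundant protein, held 149 gene models, of 30392 in the table (0.490%), whose level at Day 45 after anthesis was at least 2 times that of every earlier stage. These late-rising genes were chosen by their stage values, as a Day 45 value of at least 10 FPKM with Day 45 + 1 at least 2 times the largest earlier value + 1. FPKM is the number of sequenced fragments per length of transcript and depth of the library. The levels of these genes are therefore a description, with no test.

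The plants were of line FP15, which bears purple pods, and grew in a chamber. Pods were collected 15, 30, 37 and 45 days after anthesis, with 3 libraries per stage from different plants and 12 libraries in all. The 12 libraries are labelled as pod, while the study's methods speak of both pods and seeds being sampled. The deposited table lists 1 whole number per gene and stage. It gives no spread between plants, no depth of a library and no error of a stage value. Only a rounding error of 0.5 FPKM can be given from it. The study summarises its sequencing libraries in its supplement, of which no value was used here. In such pod samples, more cells of a type and more RNA per cell cannot be told apart.

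As a legume pod matures, the pod wall stops growing, loses photosynthetic capacity and lays down lignified fibres, while the seeds inside fill with storage proteins and then acquire desiccation tolerance. Globulins and 2S albumins are the storage proteins of legume seeds, and seed maturation proteins of the LEA type accumulate late as the seed dries. Purple pods also carry anthocyanins, which are decorated with sugars and acyl groups before they are kept in the vacuole.

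The late-rising genes were 1.23% of the 12070 genes with at least 10 FPKM at Day 45. With each stage in turn set against the other 3 by the same rule, 1104 genes stood out on Day 15, 31 on Day 30, 7 on Day 37 and 149 on Day 45. Those counts were 8.94%, 0.257%, 0.0578% and 1.23% of the genes with at least 10 FPKM at the stage concerned. By this rule Day 45 stood apart from the other stages in far more genes than Day 30 or Day 37 and in far fewer than Day 15. The stages are not on equal terms in this count. A steady rise or fall can meet the rule only at Day 15 or Day 45. Day 30 and Day 37 need a value above the stages on both sides. The stages are also unevenly spaced, and how much of the contrast comes from position and spacing was not tested. Opposite to the late-rising genes, 150 genes had a smallest earlier value + 1 at least 2 times Day 45 + 1. They were 1.41% of the 10618 genes with at least 10 FPKM at every earlier stage.

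**Figure D1:**
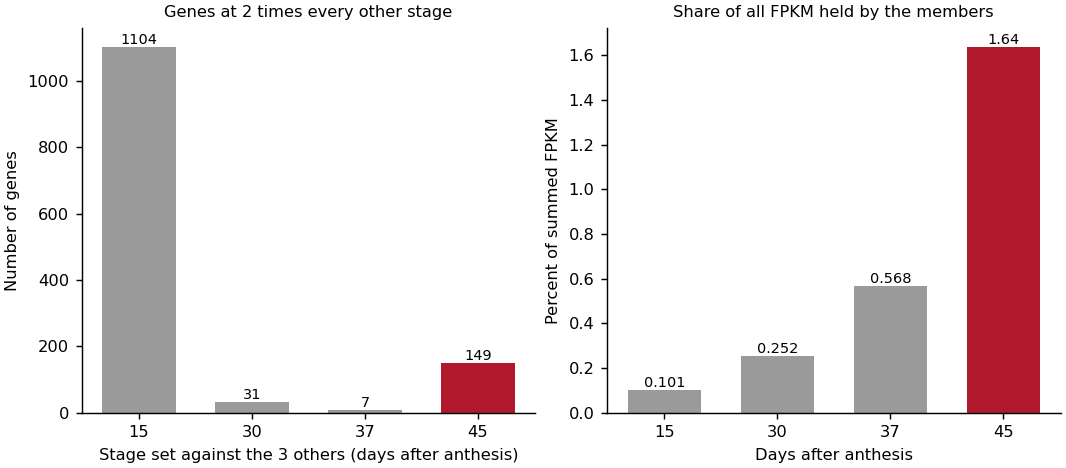
Left, the number of genes with 1 stage at least 2 times each of the other 3 (vertical axis) by stage in days after anthesis. Right, the percentage of the summed FPKM of all genes held by the 149 late-rising genes at each stage. Day 15 has 1104 such genes and Day 45 has 149, and the share of summed FPKM grows at each step to 1.64% at Day 45.

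The late-rising genes took up little of the summed FPKM until the end of the series. Their values added up to 715, 1961, 4518 and 12373 FPKM on Day 15, 30, 37 and 45. These sums were 0.101%, 0.252%, 0.568% and 1.64% of the summed FPKM of all genes at those stages. The single highest gene held 13.0% of the Day 45 sum of the 149 genes, and the 4 highest held 35.4%.

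Most of the late-rising genes were under 100 FPKM at Day 45, with a median above that of the other genes with at least 10 FPKM. At Day 45 they ranged from 10 to 1611 FPKM, with a median of 33, and 45 were under 20 FPKM, 75 at 20 to under 100 FPKM, and 29 at 100 FPKM or more. Before Day 45 the median was 2 FPKM at Day 15, 6 at Day 30 and 11 at Day 37. The other 11921 genes with at least 10 FPKM at Day 45 had medians of 24, 26, 27 and 26 FPKM at the 4 stages.

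The rise at Day 45, as log2(FPKM+1) at Day 45 minus that of the largest earlier stage, had a median of 1.36 and quartiles of 1.09 and 1.77. Over all genes with at least 10 FPKM at Day 45 the same median was -0.08. A ratio of 3 or more was reached by 54 genes, a ratio of 4 or more by 25 and a ratio of 8 or more by 6. The median rise was 1.36 in the genes under 20 FPKM at Day 45, 1.39 in those at 20 to under 100 FPKM and 1.19 in those at 100 FPKM or more.

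**Figure D2:**
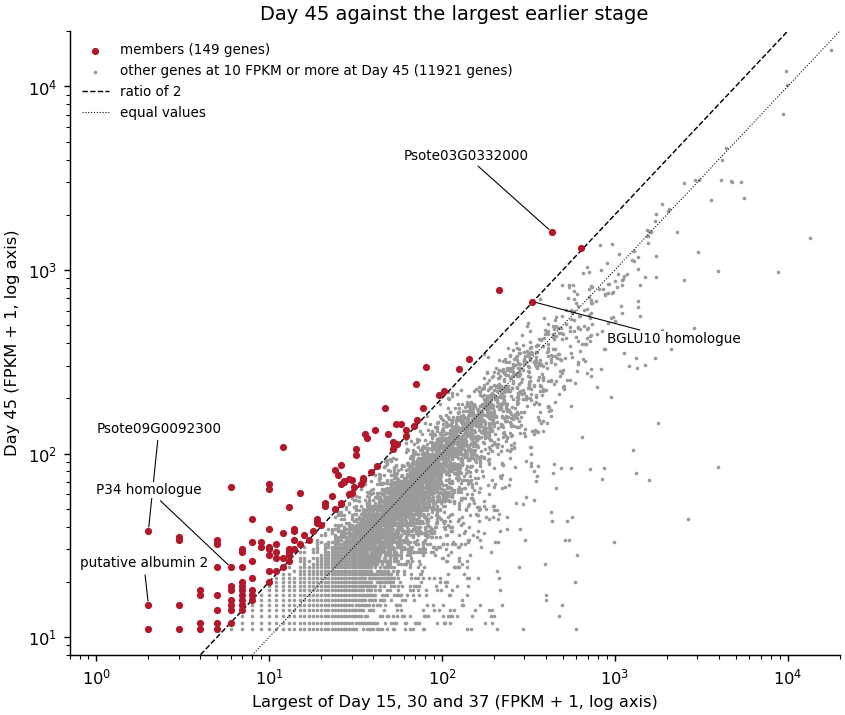
Each point is a gene with at least 10 FPKM at Day 45, placed by its largest earlier value + 1 (horizontal, log axis) and its Day 45 value + 1 (vertical, log axis), with the 149 late-rising genes in red and the other 11921 in grey. The red points lie on or above the dashed line of ratio 2 because the rule put them there, and many sit close to it.

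The threshold cut through a continuous range. A ratio of exactly 2 was found in 15 late-rising genes, 33 had ratios up to 2.1, and 17 other genes with at least 10 FPKM at Day 45 had ratios of at least 1.9. Of the named genes just outside, a vicilin-like gene (Psote04G0317000), which encodes a 7S-type storage globulin, had 0, 4, 29 and 58 FPKM at Day 15, 30, 37 and 45, a ratio of 1.97. The homologue of GAE6 (Psote03G0113800), a UDP-glucuronate epimerase that makes a pectin precursor in Arabidopsis, had 2, 7, 14 and 28 FPKM and a ratio of 1.93. An ABC transporter of the ABCC family (Psote04G0199900), whose members load conjugates into the vacuole, had 1, 19, 47 and 88 FPKM and a ratio of 1.85. At the other limit, 5 late-rising genes had exactly 10 FPKM at Day 45, and 9 genes met the ratio with 9 FPKM.

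None of the late-rising genes was listed at 0 in all 3 earlier stages. Day 15 was listed at 0 in 46 of the 149, Day 30 in 9 and Day 37 in 0, and 8 were at 0 at both Day 15 and Day 30. The largest earlier value was 1 FPKM in 4 genes, 5 FPKM or less in 34 and 50 FPKM or more in 22. Over the whole table, 8157 genes were listed at 0 in all 3 earlier stages. Of these, 224 had 1 FPKM or more at Day 45, 21 had 2 or more, and the highest had 8. At the other end of the series, 21 genes with 10 FPKM or more at Day 15 were listed at 0 at every later stage, the highest with 269 FPKM.

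Most of these genes were not rising at Day 45 alone. In 123 of the 149 (82.6%), Day 37 + 1 was already at least 2 times Day 15 + 1, against 1511 of the other 11921 genes (12.7%). Of the 123, 100 had at least 5 FPKM at Day 37, and 23 had 1 to 4 FPKM, where a step of a few FPKM meets the 2-fold limit. Their median levels were 1, 5, 10 and 31 FPKM at Day 15, 30, 37 and 45. Each stage was higher than the stage before in 101 late-rising genes (67.8%), against 2252 of the other genes (18.9%). The medians of the earlier steps on the log2(FPKM+1) scale were 1.0 between Day 15 and Day 30 and 0.96 between Day 30 and Day 37 in the late-rising genes, against 0.12 and 0.00 in the other genes. The rule held all 3 earlier values to a limit set by Day 45 and so selected for low early values, and these differences from the other genes are in part built in by the choice.

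Only the remaining 26 late-rising genes stood within 2-fold of their Day 15 value at Day 37. Their medians were 9, 10.5, 13.5 and 38 FPKM at the 4 stages. Day 45 lay between 10 and 141 FPKM in them and 2.0 to 6.4 times the largest earlier value on the value + 1 scale, and 8 of the 26 had a ratio of 3 or more. The steepest of the 26 were a pair with a ratio of 6.4. A gene at Chr01.1:12810405-12811465 had 8, 5, 9 and 63 FPKM, and one at Chr02.1:8314660-8320770 had 4, 2, 4 and 31 FPKM at Day 15, 30, 37 and 45. The highest of them, at Chr05.1:4783574-4790068, had 59, 46, 68 and 141 FPKM. In 15 of the 26, Day 30 was below Day 15, and no other late-rising gene had such a dip.

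**Figure D3:**
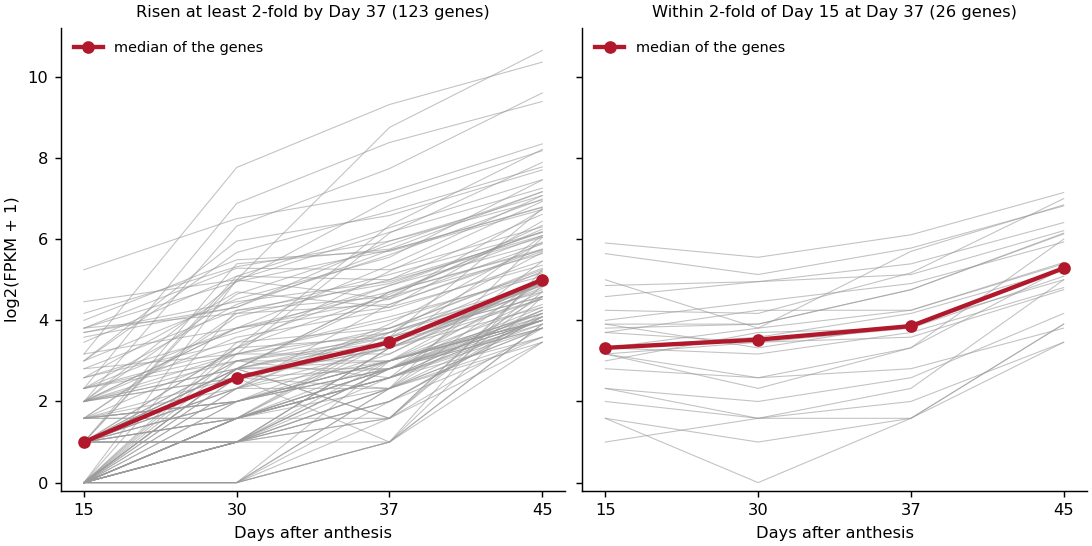
The log2(FPKM + 1) of each late-rising gene (grey lines) by days after anthesis, with 123 genes that had risen at least 2-fold by Day 37 on the left and 26 that had not on the right. Red points are the medians of the genes, 1, 5, 10 and 31 FPKM on the left and 9, 10.5, 13.5 and 38 FPKM on the right.

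Genes that doubled over 2 steps in a row were counted late and early in the series. Between Day 30 and Day 37, 228 genes had at least doubled on the value + 1 scale and reached 5 FPKM. Of these, 60 doubled again by Day 45 (26.3%). All 60 are among the 149, which is largely built in, since the rule asks for that last doubling. Of the rest, 140 stayed within 2-fold (61.4%) and 28 halved (12.3%). Between Day 15 and Day 30, 1455 genes had doubled in the same way, of which 75 doubled again by Day 37 (5.15%). The intervals differ in length, and with 1 value per stage the difference between the shares was not tested.

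Most genes that doubled between Day 37 and Day 45 also doubled over their other earlier levels. Of 162 genes with at least 10 FPKM at Day 45 that had doubled since Day 37 (1.34% of 12070), 149 were late-rising genes, and in 13 a Day 15 or Day 30 value was too near to Day 45 for the ratio of 2. Only 1 of the 13 had an earlier value above Day 45. Of the 149, 126 had their largest earlier value at Day 37 alone and 9 at Day 30 alone, and 14 had ties.

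The study's text and supplementary tables give a name or homologue to 10 of the 149 late-rising genes. The other 139 have no name in the sources used here and are given by position on the scaffolds of the study's own assembly. The named genes fall into storage and seed maturation proteins, a transcription factor, and enzymes of phenylpropanoid and anthocyanin metabolism. The tables that name them also print stage means, so membership in their lists is not independent evidence of a direction.

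Of the 5 seed proteins among them, 4 were listed at 0 at Day 15, and the 18 kDa seed maturation protein had 31 FPKM. The P34 homologue (Psote03G0119900, Chr03.1:22734739-22736264), which in soybean is a papain-like protein of the seed protein storage vacuole and in Arabidopsis corresponds to the cysteine peptidase XBCP3, had 0, 5, 1 and 23 FPKM at Day 15, 30, 37 and 45. It was lower at Day 37 than at Day 30 and stood at Day 45 above all 3 earlier stages, by 2.0 on the log2(FPKM+1) scale over Day 30. It was the 1 late-rising gene among 137 genes with at least 10 FPKM at Day 45 in the qSSP-1 interval, a chromosome region the study linked to seed protein content.

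A seed maturation protein (Psote04G0062600, Chr04.1:11435996-11436897), matched by the study to a Medicago gene, had 0, 0, 7 and 32 FPKM. An 18 kDa seed maturation protein (Psote05G0226200, Chr05.3:3463075-3463873) had 31, 13, 51 and 114 FPKM. Day 45 exceeded Day 37 by 2.04 on the log2(FPKM+1) scale in Psote04G0062600, which began at 0, and by 1.15 in the 18 kDa gene, which dipped at Day 30.

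A putative albumin 2 gene (Psote04G0279400, Chr04.3:5215419-5221423) had 0, 0, 1 and 14 FPKM. Its rise of 2.91 was the largest of the named genes and shared rank 7 among the 149. A putative 2S albumin (Psote07G0197200, Chr07.2:16634108-16638146), from a family that also holds lipid transfer proteins and protease inhibitors, had 0, 18, 23 and 80 FPKM, a rise of 1.75 over Day 37. It lies in the qSSP-5 interval, where 6 of 493 genes with at least 10 FPKM at Day 45 were late-rising (1.22%, against 1.23% over the table).

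The transcription factor was a homologue of NAC100 (Psote02G0211300, Chr02.5:5879272-5881296), of the plant-specific NAC family, listed by the study among regulators of storage proteins. It had 1, 3, 6 and 15 FPKM at Day 15, 30, 37 and 45, higher at each stage than at the one before. Its Day 45 level ranked 120 among the 149 late-rising genes, with 56.9% of the genes that reached 1 FPKM below it.

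The 4 enzymes placed by the study in pigment and phenylpropanoid metabolism had between 20 and 672 FPKM at Day 45. The homologue of BGLU10 (Psote04G0199300, Chr04.2:12805390-12843018), a glycoside hydrolase family member listed as an anthocyanin glucosyltransferase, had 4, 117, 333 and 672 FPKM. It was the fourth highest late-rising gene at Day 45 and one of those nearest to the limit, with a ratio of 2.01. Its largest step, 4.56 on the log2(FPKM+1) scale, came between Day 15 and Day 30. The homologue of A3Glc:6″CouT1 (Psote03G0355100, Chr03.5:20784970-20788631), which in Arabidopsis adds a coumaroyl group to the sugar of anthocyanins, had 0, 31, 71 and 152 FPKM. It too stepped up most between Day 15 and Day 30, by 5.0, and by 1.09 at Day 45 over Day 37.

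The homologue of BGLU46 (Psote01G0130800, Chr01.1:18662919-18670345), which in Arabidopsis releases monolignols, the building blocks of lignin, from their glucosides, had 2, 16, 31 and 97 FPKM. The homologue of OMT1 (Psote01G0435000, Chr01.7:19090663-19093268), the caffeic acid O-methyltransferase of lignin and flavonol synthesis, had 1, 3, 7 and 20 FPKM. Both were higher at each stage than at the one before, with rises at Day 45 over Day 37 of 1.61 for BGLU46 and 1.39 for OMT1.

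**Figure D4:**
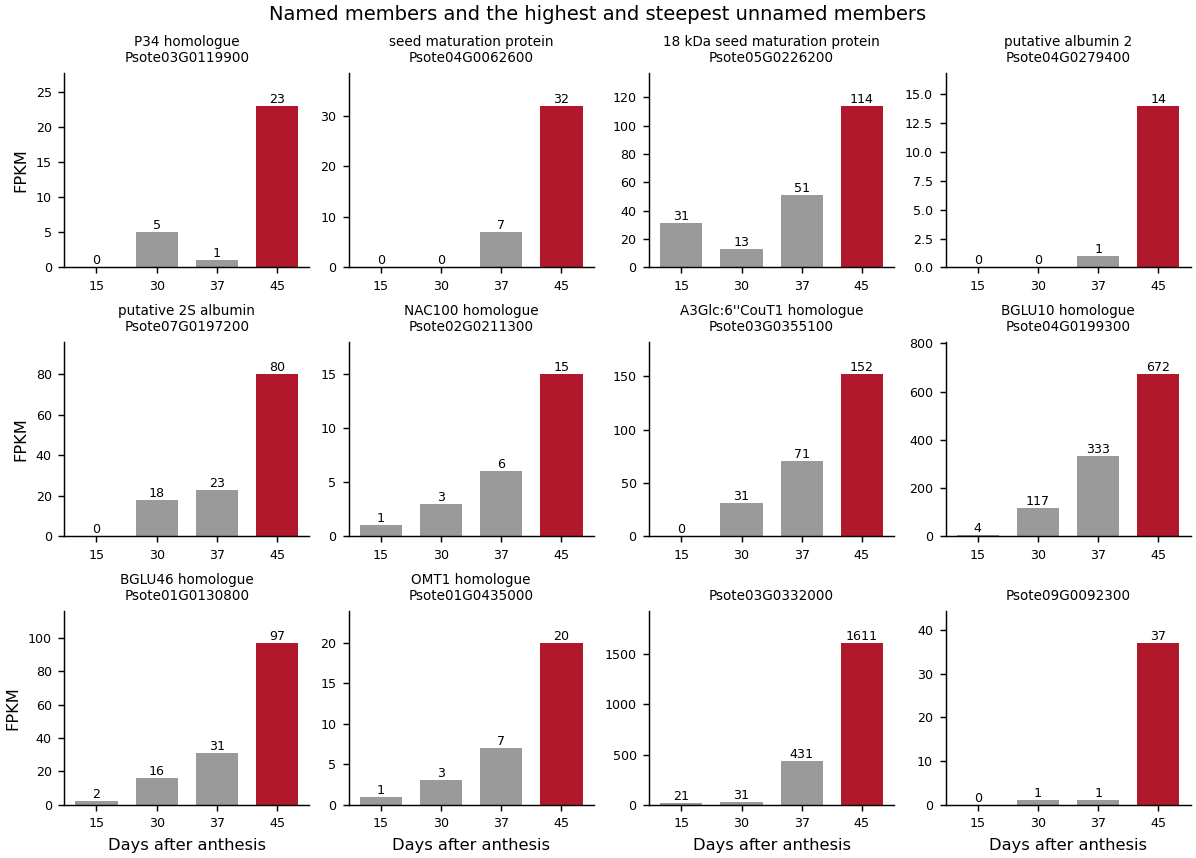
FPKM (vertical axes, each from 0) by days after anthesis for the 10 named late-rising genes and the unnamed genes Psote03G0332000, highest at Day 45, and Psote09G0092300, with the largest rise. Day 45 is in red, the earlier stages are in grey, and the deposited value stands over each bar. Of the 12 genes plotted, only the P34 homologue and the 18 kDa seed maturation protein are lower at some stage than at the one before.

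Most genes of the lists that hold these 10 were not late-rising. Of the globulin and legumin genes, 2 of the 9 with at least 10 FPKM at Day 45 were late-rising, both seed maturation proteins, against 1.23% over the table. Of 18 in that list that reached 1 FPKM in any stage, 4 had doubled and 3 had halved at Day 45 relative to Day 37. Of the albumins it was 1 of 3, of the putative 2S albumins 1 of 2, and of the storage protein transcription factors 1 of 8. The pigment pathway table had 4 of 131 and the qSSP-1 candidates 1 of 31 (3.05% and 3.23%). Between Day 37 and Day 45, 15 of 275 measured pigment pathway genes had doubled and 27 had halved. Over the 22459 genes that reached 1 FPKM, 3.53% had doubled and 5.13% had halved. The median change over that step was 0.00 on the log2(FPKM+1) scale in the pigment, globulin, albumin, 2S albumin and transcription factor lists and over all genes, and -0.13 in the qSSP-1 candidates.

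The labelled tissue was compared with marker genes picked with the study's stage means known. Of 9 seed markers, 4 are themselves late-rising genes and 6 were highest at Day 45. Their summed level was 205, 155, 208 and 364 FPKM at Day 15, 30, 37 and 45. The 4 late-rising markers, chosen for a high Day 45, summed to 31, 36, 82 and 249 FPKM, and the other 5 to 174, 119, 126 and 115 FPKM. The 5 did not move alike, and 1 falling gene, an 11S globulin, weighed most in their sum. The vicilin-like gene just outside the rule rose, with 0, 4, 29 and 58 FPKM, and the seed maturation protein PM36 had 26, 47, 48 and 42 FPKM. The 11S globulin Psote03G0078700 was highest in the youngest pods, with 148, 68, 48 and 12 FPKM at Day 15, 30, 37 and 45. Its paralogue had 0, 0, 0 and 2 FPKM, and the homologue of ABI3, the seed maturation regulator, 0, 0, 1 and 1 FPKM. The full storage protein lists did not move alike either. The 25 globulin and legumin genes summed to 324, 225, 288 and 362 FPKM at Day 15, 30, 37 and 45. The 18 albumins summed to 77, 33, 58 and 54 FPKM. The 8 putative 2S albumins, which include the late-rising Psote07G0197200, summed to 390, 876, 868 and 872 FPKM. The 3 genes taken as pod wall markers were homologues of the fruit regulators FUL and AG and of the chlorophyll-binding protein LHCB6. That they mark the pod wall alone was not tested. They summed to 484, 551, 587 and 412 FPKM, and none was highest at Day 45. From Day 37 to Day 45, LHCB6 went from 264 to 128 FPKM, FUL from 97 to 85 and AG from 226 to 199. Whether the share of seed tissue in the sampled pods had a part in the late rise was not tested.

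Among the unnamed genes, Psote03G0332000 (Chr03.5:17056926-17060326) had the highest Day 45 value. It had 21, 31, 431 and 1611 FPKM at Day 15, 30, 37 and 45 and ranked 24 among all genes at Day 45. Its largest step, 3.75 on the log2(FPKM+1) scale, came between Day 30 and Day 37, ahead of 1.9 at Day 45 over Day 37. It lies in the qSSP-2 interval, where 4 of 382 genes with at least 10 FPKM at Day 45 were late-rising (1.05%).

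Of the next highest, the gene model at Chr05.3:21730369-21734628 had 3, 79, 213 and 778 FPKM. The one at Chr01.1:2145877-2147677 had 37, 90, 142 and 325 FPKM. A gene at Chr04.1:11381367-11387888 had 0, 9, 80 and 296 FPKM, with 1 silent model between it and the seed maturation protein gene Psote04G0062600. All 3 climbed at each stage.

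The largest rise was in Psote09G0092300 (Chr09.4:5512013-5513217), with 0, 1, 1 and 37 FPKM and a rise of 4.25 on the log2(FPKM+1) scale. A further 5 genes had a ratio of at least 8. They were at Chr05.2:5889492-5891232 with 0, 0, 2 and 34 FPKM, at Chr06.4:32364940-32366307 with 0, 2, 2 and 33 FPKM, and at Chr03.5:24181116-24183258 with 1, 5, 4 and 65 FPKM. The remaining pair were at Chr04.1:13425121-13428592 with 2, 2, 11 and 107 FPKM and at Chr04.2:8223326-8224581 with 0, 1, 2 and 25 FPKM. All 6 stood at 11 FPKM or less in every stage before Day 45.

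The late-rising genes were spread over the genome. They lay on 29 of the 41 scaffolds that carry a gene with at least 10 FPKM at Day 45, at most 12 on any scaffold. By chromosome they made up between 1.06% (chromosome 2) and 1.67% (chromosome 9) of the genes with at least 10 FPKM at Day 45, near the 1.23% over the table. The remaining 2 were on a scaffold with no chromosome number. Scaffolds of that kind held only 23 genes with at least 10 FPKM at Day 45, so the 2 were 8.70% of them. The 5 seed protein intervals held 12 late-rising genes among 1338 with at least 10 FPKM at Day 45 (0.897%), and 1 of the 5, qSSP-4, held none. The gene models of late-rising genes spanned 222 to 37629 bp with a median of 2425 bp, against a median of 3748 bp in the other genes. A span under 1000 bp was found in 31 of them (20.8%), against 1618 of the other genes (13.6%).

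Of the 149 late-rising genes, 15 (10.1%) were direct neighbours of another in the order of gene models, in 1 run of 3 and 6 pairs, and 134 stood alone. By the same rule at the other stages, 243 of the 1104 genes of Day 15 (22.0%), 2 of the 31 of Day 30 (6.45%) and 0 of the 7 of Day 37 had such a neighbour, in sets of very different size. Of the 8 links between neighbours, 4 joined a gene model that lies wholly inside the other one. The libraries were not stranded, so the strand cannot tell apart reads that fall in both of 2 overlapping models. Only the spans of the models are given, and how the counting treated such reads is unknown here. With each inner model counted with its outer one, 145 late-rising genes remain, of which 8 have such a neighbour.

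The run of 3 was on Chr01.6. Psote01G0343100 (3544615-3546812) had 3, 11, 18 and 43 FPKM at Day 15, 30, 37 and 45. Psote01G0343200 (3546844-3551995), which starts 31 bp after it, had 4, 13, 25 and 53 FPKM. Psote01G0343300 (3549392-3549797), inside the second model, had 6, 18, 29 and 71 FPKM. The 3 moved in parallel, with rises of 1.21, 1.05 and 1.26 on the log2(FPKM+1) scale.

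The BGLU10 homologue holds the second highest late-rising gene model within its span of 37629 bp. That inner model, at Chr04.2:12811701-12812690, had 8, 217, 638 and 1317 FPKM at Day 15, 30, 37 and 45, which was 2.0, 1.85, 1.92 and 1.96 times the outer value. The level of BGLU10 may thus hold reads of the model inside it, which the spans alone cannot settle. Its ratio of 2.01 and the 2.06 of the inner model may not be 2 separate observations.

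A further pair of nested models on Chr03.5 (5790718-5795283 and 5791992-5792962) had 3, 7, 7 and 25 FPKM in the outer and 3, 8, 8 and 32 FPKM in the inner model. The fourth nested pair, on Chr04.3 (1434401-1444752 and 1438685-1444604), had 0, 0, 1 and 10 FPKM in the outer and 0, 0, 4 and 13 FPKM in the inner model. In both pairs the models kept the same order of stages.

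The 3 pairs with no overlap between the partners were on Chr03.5, Chr05.1 and Chr06.2. On Chr03.5, models 33 bp apart (7370137-7371105 and 7371139-7371894) had the same 1, 1 and 9 FPKM at Day 15, 30 and 37, and 27 and 29 FPKM at Day 45. On Chr05.1, models 738 bp apart (24979359-24989501 and 24990240-24990955) had 10, 33, 31 and 67 FPKM and 13, 38, 37 and 78 FPKM. Both models of this Chr05.1 pair overlap a further gene model, so the limit on shared reads holds for them too. On Chr06.2, where 4036 bp lie between the models, the pattern differed: the one at 164714-167585 had 7, 61, 95 and 208 FPKM, and the one at 171622-173846 had 0, 0, 3 and 17 FPKM. This was the only pair of neighbours apart by more than 1000 bp.

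**Figure D5:**
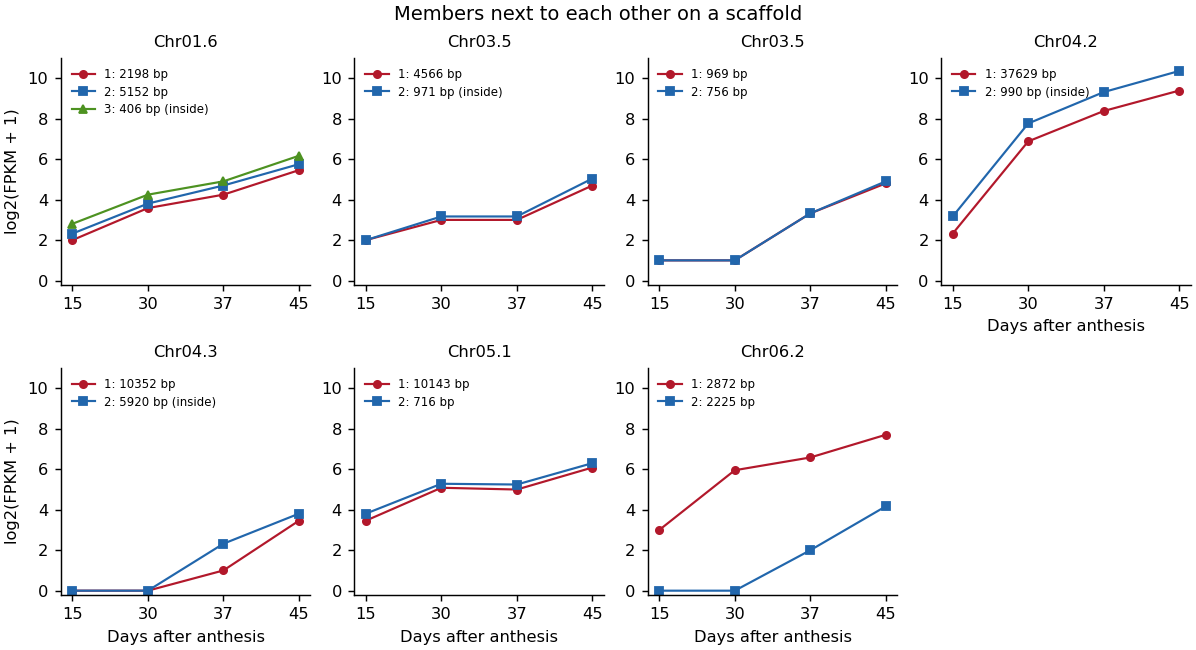
The log2(FPKM + 1) of late-rising genes that are direct neighbours on a scaffold, by days after anthesis, with 1 panel for each of the 7 groups and the span of each gene model in the legend. Curves run close together in the models that overlap or lie under 1000 bp apart, apart from Day 37 on Chr04.3 and the constant gap on Chr04.2, and lie far apart on Chr06.2.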

How the data were processed

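The libraries were poly(A)-selected and not stranded. Per the labels and the submitters' processing notes, reads were trimmed with fastp, mapped with HISAT2 2.0.5 and counted with featureCounts 1.5.0-p3, on the study's own assembly. The authors deposited 1 value per gene and stage, an FPKM score in whole numbers. The sources used here do not say how a stage's 3 libraries were merged, and 0 columns of other samples were present. Stages were assigned from the labels.

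The rule, stage differences of log2(FPKM+1), classes of earlier course, neighbours in start order and overlaps of gene models were computed with Python 3.11.15, pandas 2.3.3 and numpy 2.4.6, and figures with matplotlib 3.10.9. A gene was measured where a stage reached 1 FPKM. The rule and the neighbour search were checked on simulated data. With 1 value per stage no test, SD or p-value was possible. The design had planned for this case. Names and list membership came from the study's supplementary tables, of which no value was used. The genes and lists were chosen with earlier results of these data known. Named were all late-rising genes with a name, the unnamed ones with the highest Day 45 value and the largest rise, named genes with a ratio of 1.8 to 2, and runs of 3. The other late-rising genes given by position were picked after their values were seen. Sequences of the genes are not shown.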

Additional observations from a re-analysis of the deposited data

How the results depend on the processing

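No paired analysis was possible because the table holds no value per library, and leaving out replicates could not be run for the same reason. The number of late-rising genes was 149 with a pseudocount of 1, 0.1 or 0.01, which whole-number values fix by construction, and 149 under median-ratio scaling, 162 under same-sum scaling and 137 under quantile scaling (149, 148 and 134 of them the same genes). Genes lower at Day 45 than at every earlier stage by the 2-fold limit were 150 as deposited, and 124, 112 and 129 under the median-ratio, same-sum and quantile scalings. A Day 45 minimum of 5 gave 212 and of 20 gave 104. Wherever within 0.5 FPKM the unrounded values lie, 120 of the 149 met the rule, all 10 named genes included, and a ratio of 3 left 54, with 5 named genes. Genes silent before Day 45 were 4 where 1 FPKM or less counts as silent and 2 with a Day 45 minimum of 5, but 0 with a minimum of 20. The median rise stayed between 1.33 and 1.43. Neighbours numbered 24 with starts within 100 kb, and 8 with nested models counted once, an alternative added after seeing the data. With a 3-fold limit, 97 had risen by Day 37 and 52 had not. The rises of the 10 named genes and of Psote03G0332000 and Psote09G0092300, 12 in all, moved by less than 0.2 on the log2 scale under each of the 3 scalings. Values of a few FPKM are limited by rounding.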
